A study of Mus musculus with 15 samples.

Results

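The mitochondrial carrier family is defined here as all genes whose symbol is Slc25a followed by a number, found by matching the transcript identifiers of the array's probes to a table of mouse RefSeq genes. The array named 47 such genes among 19752 symbols. Of these 47, 42 gave enough signal to be tested, among 28029 genes and unnamed transcripts tested in all. RNA from mammary tumours of female mice was hybridised to 15 Agilent arrays with a single dye, 1 tumour sample per array. The groups were tumours at the end of nintedanib treatment (4 arrays), at the end of B20 treatment (4 arrays), at the end of vehicle treatment (3 arrays) and tumours taken before any treatment, called T0 (4 arrays). The labels of the nintedanib, B20 and vehicle arrays name MMTV-PyMT mice, in which the polyoma middle T oncogene is driven by a mammary tumour virus promoter. The T0 labels name the tissue and the sex but neither the mouse line nor an age. Nintedanib, an inhibitor of the VEGF, FGF and PDGF receptor kinases, was given by gavage at 85 mg per kg each day. B20, short for B20-4.1.1, is an antibody that binds VEGF, and it was injected intraperitoneally at 5 mg per kg, 2 times per week. Drugs were started when the mice were 7 weeks old. The composition of the vehicle and the length of treatment are not given in the sources used here. T0 replicate 4 carries both a vehicle label and a before-treatment label, and its title places it in T0. No label says that the tumours of a group came from separate mice, so the p-values reflect how far these tumours vary within a group, and part of that may be technical.

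Mitochondrial carriers are small membrane proteins, most of them in the inner mitochondrial membrane, which is otherwise closed to charged metabolites. Each carrier exchanges or imports a limited set of solutes, such as ADP and ATP, phosphate, citrate, aspartate and glutamate, acylcarnitines, coenzyme A, folate, iron or NAD+, and so joins the cytosol to the respiratory chain, the citric acid cycle, haem synthesis and mitochondrial DNA upkeep. In tumours the family is known for the aspartate and glutamate carriers of the malate-aspartate shuttle, for citrate export to lipid synthesis and for the isoforms of the adenine nucleotide translocase.

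RefSeq promoter windows (GRCm38.p6, 250 bases before to 50 bases after each start) were at hand for 36 of the 47 members, in 46 windows. The 4 windows below belong to the 3 members that fell relative to T0, and to Slc25a34, the member with the lowest p in nintedanib against vehicle tumours. They lie at chr10:62920383-62920682 on the plus strand (Slc25a16), chr8:70212232-70212531 on the minus strand (Slc25a42), chr13:56438105-56438404 on the plus strand (Slc25a48) and chr4:141623785-141624084 on the minus strand (Slc25a34), and are written 5′ to 3′ along the gene. Capitals mark, on either strand, the Sp1 box GGGCGG, the CCAAT box CCAAT and the oestrogen-related receptor element AAGGTCA. The NRF1 core was searched for as well.
Slc25a16: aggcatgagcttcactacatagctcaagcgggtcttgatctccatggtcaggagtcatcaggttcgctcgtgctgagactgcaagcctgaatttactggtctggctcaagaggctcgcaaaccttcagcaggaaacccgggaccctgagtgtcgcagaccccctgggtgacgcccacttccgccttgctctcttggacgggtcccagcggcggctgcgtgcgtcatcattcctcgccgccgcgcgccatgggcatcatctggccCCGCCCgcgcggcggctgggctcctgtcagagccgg
Slc25a42: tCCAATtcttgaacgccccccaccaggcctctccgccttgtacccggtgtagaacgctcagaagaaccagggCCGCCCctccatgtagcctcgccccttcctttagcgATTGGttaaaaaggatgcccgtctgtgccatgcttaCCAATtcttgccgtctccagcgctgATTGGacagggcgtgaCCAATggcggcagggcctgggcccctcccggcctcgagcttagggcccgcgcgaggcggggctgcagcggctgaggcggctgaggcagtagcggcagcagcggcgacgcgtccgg
Slc25a48: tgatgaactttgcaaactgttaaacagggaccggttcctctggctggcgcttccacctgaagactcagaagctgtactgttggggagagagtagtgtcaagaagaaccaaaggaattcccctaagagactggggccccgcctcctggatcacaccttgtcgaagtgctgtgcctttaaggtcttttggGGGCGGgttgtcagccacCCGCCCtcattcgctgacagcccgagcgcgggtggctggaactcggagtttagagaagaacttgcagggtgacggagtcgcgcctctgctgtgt
Slc25a34: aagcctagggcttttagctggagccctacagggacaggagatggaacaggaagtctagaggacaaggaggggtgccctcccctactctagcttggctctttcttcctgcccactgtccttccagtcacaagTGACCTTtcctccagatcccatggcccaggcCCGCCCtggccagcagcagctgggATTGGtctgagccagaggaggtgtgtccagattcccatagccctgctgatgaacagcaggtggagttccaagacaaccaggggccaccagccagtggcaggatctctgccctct

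The Sp1 box was present in 38 of the 46 member windows (82.6%), against 35.7% of all 32851 windows. The CCAAT box was present in 22 member windows (47.8%), against 37.4% of all windows, and Slc25a42 held 5 matches to it. The oestrogen-related receptor element was found in the Slc25a34 window alone (2.17% of member windows, against 4.72% of all). The NRF1 core was found in 2 member windows, those of Slc25a3 and Slc25a31 (4.35%, against 4.6% of all). A match describes the letters of a window and is not evidence of a bound site.

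Levels are log2 signals minus the 75th percentile of the array in question. Differences are on the same log2 scale, given with the SE of a limma model fitted to all 15 arrays. A gene was called when its Benjamini-Hochberg adjusted p, taken over all 28029 genes, was under 0.05. Between 53.4% and 68.1% of probes were well above background on 14 arrays, and 84.2% on T0 replicate 3. The 11 arrays of treated tumours lay on 2 slides, 1 with 8 arrays and 1 with 3, each of which held nintedanib, B20 and vehicle samples. The T0 arrays lay on 2 further slides, replicates 1 and 2 on one and 3 and 4 on the other, scanned on another day with another version of the extraction protocol, so slide and scan cannot be told apart from treatment and time in any comparison with T0. The 13 luminal epithelial markers fixed as a list were all tested, with a summed linear signal of 561 to 720 in nintedanib, 572 to 727 in B20, 531 to 682 in vehicle and 591 to 781 in T0 tumours. Their mean level was 2.25 to 2.61 in nintedanib, 1.77 to 2.54 in B20, 1.90 to 2.22 in vehicle and 2.36 to 2.92 in T0 tumours, so that every nintedanib and T0 tumour lay above every vehicle tumour. They were lower than T0 for 10, 10 and 11 of 13 genes in nintedanib, B20 and vehicle tumours, with 2, 1 and 1 called, and their part in the members' differences was not tested. The 16 adipocyte markers summed to 64.2 to 391 in nintedanib, 63.6 to 333 in B20, 34.8 to 95.6 in vehicle and 602 to 2360 in T0 tumours, and Lep was not well above background in any vehicle tumour. The 18 skeletal muscle markers summed to 21.3 to 310, 26.8 to 2180, 16.8 to 140 and 82.6 to 3310 in nintedanib, B20, vehicle and T0 tumours. Sums here are multiples of the array's 75th percentile signal. In such bulk samples, fewer cells of a type and less RNA per cell cannot be told apart.

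Of the 42 tested members, 40 were well above background on all 15 arrays. Slc25a41 was so on 13 arrays and Slc25a48 on 9. The other 5 members did not pass the filter of 3 arrays. Slc25a2, an ornithine carrier, was well above background on 2 arrays, both T0. Slc25a21, a carrier of oxodicarboxylates, and Slc25a31, the adenine nucleotide translocase of the testis, were so on 1 T0 array each. Slc25a53 was so on 2 arrays with 1 of its 2 probes, and Slc25a54 on 0 arrays. Slc25a21, Slc25a31 and the brighter Slc25a53 probe read highest on T0 replicate 3 (-4.47, -4.23 and -4.48), the array with 84.2% of probes well above background. Slc25a2 read -4.91 there and -4.56 on T0 replicate 4. The SD over the 15 arrays had a median of 0.37 over the tested members and 0.44 over all genes, and 18 of the 42 members lay above the median of all genes. Slc25a40 varied least among the members (SD 0.11) and Slc25a48 most (SD 1.17). T0 replicate 1 gave the highest of the 15 levels for 13 of the 42 members, T0 replicate 4 for 6 and nintedanib replicate 4 for 7. Vehicle replicate 3 gave the lowest level for 8 members.

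The first question was what the antiangiogenic drugs changed relative to vehicle. No member was called in nintedanib against vehicle tumours, in B20 against vehicle tumours or in nintedanib against B20 tumours, and percent called over all genes was 0 in each. At an unadjusted p under 0.05, 3 members (7.14%) stood out in nintedanib against vehicle tumours, where 4.83% of all genes did. For B20 against vehicle tumours these figures were 2 members (4.76%) and 3.25% of all genes. For nintedanib against B20 tumours they were 6 members (14.3%) and 9.38% of all genes. In nintedanib against vehicle tumours 24 members were higher and 18 lower, where 48.8% of all genes were higher, with a median difference of 0.07 over the members and -0.01 over all genes. The members' balance turned without vehicle replicate 3, with 16 higher and a median of -0.04, and on the slide of 8 arrays alone, with 14 higher and a median of -0.06. In B20 against vehicle tumours 23 were higher and 19 lower, where 55.1% of all genes were higher, with medians of 0.04 for both. Without vehicle replicate 3, 19 members were higher there and their median was -0.02. In nintedanib against B20 tumours 23 were higher and 19 lower, where 44.7% of all genes were higher, with a median of 0.00 over the members and -0.04 over all genes. Both drug comparisons share the 3 vehicle arrays. The 95% interval of the difference lay within 1 log2 unit of 0 for 29 of the 42 members in nintedanib against vehicle tumours, and for 25 in B20 against vehicle tumours.

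**Figure D1:**
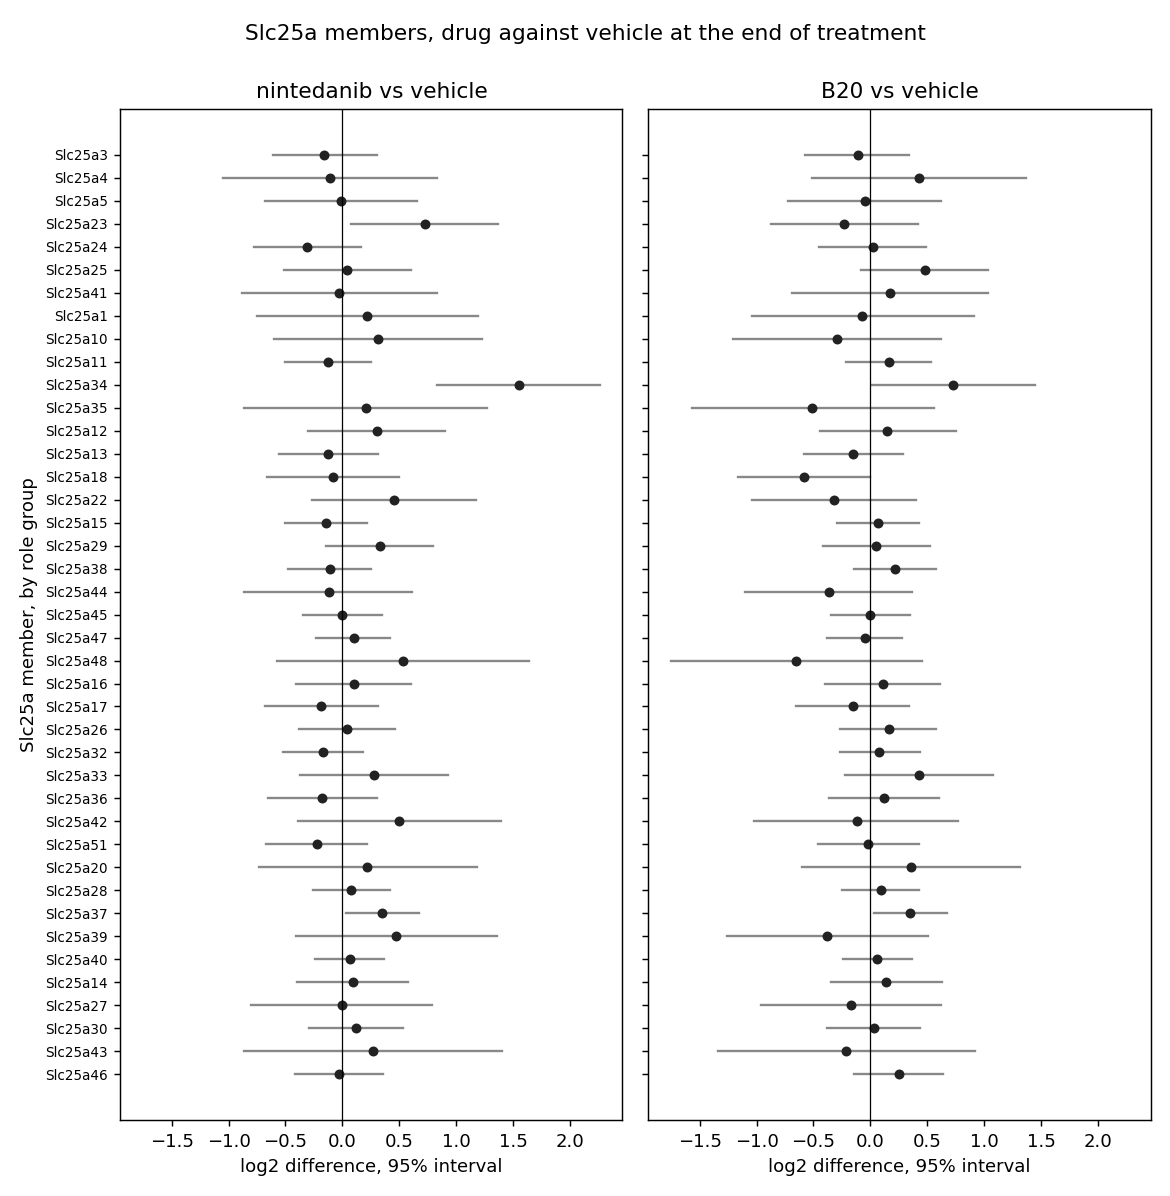
Log2 difference of 41 of the 42 tested members between nintedanib and vehicle tumours (left) and between B20 and vehicle tumours (right), with its 95% interval (horizontal lines), members ordered by role. No plotted member was called in either panel, and Slc25a34 in nintedanib tumours (1.55) lies farthest from 0.

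The second question was how tumours at the end of treatment differed from T0. The 3 comparisons share the 4 T0 arrays. In nintedanib against T0 tumours 4 members were called, 3 higher and 1 lower, which is 4 of 42 where 11.4% of all genes were called (6.82% higher and 4.62% lower). With normexp background correction, quantile normalization or the authors' deposited log2 values, 4 members were called as well, but 1 higher and 3 lower. Over all genes the nintedanib calls were 1912 higher and 1296 lower, against 1124 higher and 1550 lower with normexp correction. In B20 against T0 tumours 5 members were called, 2 higher and 3 lower, where 9.52% of all genes were called (5.79% higher and 3.73% lower). In vehicle against T0 tumours 1 member was called, lower, where 4.93% of all genes were called (2.8% higher and 2.13% lower). The vehicle calls over all genes were 785 higher and 597 lower, against 441 higher and 511 lower with normexp correction. The members' counts were thus close to what the shares over all genes give, or below it. The called members were 6 in all. Slc25a16 was lower in all 3 comparisons, Slc25a42 and Slc25a48 were lower in B20 tumours, Slc25a37 and Slc25a41 were higher in nintedanib and B20 tumours, and Slc25a47 was higher in nintedanib tumours. The median difference over the 42 members was -0.14, -0.21 and -0.19 in nintedanib, B20 and vehicle tumours against T0, and 0.01, 0.08 and 0.04 over all genes. Of the 42 members, 24, 25 and 26 were lower than T0 in nintedanib, B20 and vehicle tumours, where 48.9%, 43.6% and 46% of all genes were lower. Without overlap with T0, 5 members were higher and 7 lower in nintedanib tumours, where 2629 and 2091 of the 28029 genes were. In B20 tumours these counts were 5 and 6 members, and 2603 and 1739 genes. In vehicle tumours they were 2 and 5 members, and 2721 and 1952 genes. The adipocyte markers were lower than T0 for 16 of 16 genes in each comparison, with 14, 13 and 13 of them called in nintedanib, B20 and vehicle tumours, and their part in the members' differences was not tested. The 12 markers of endothelium, the cell type that antiangiogenic drugs are aimed at, were lower than T0 for 12, 11 and 12 genes in nintedanib, B20 and vehicle tumours (medians -1.01, -1.49 and -1.10), with 5, 9 and 3 called. Their summed signal was 17.1 to 19.9 in nintedanib, 19 to 26.1 in B20, 17.3 to 27.7 in vehicle and 24.3 to 47.9 in T0 tumours. Against vehicle they were lower for 7 of 12 genes in nintedanib and 10 of 12 in B20 tumours (medians -0.09 and -0.48), none called. The 18 skeletal muscle markers were lower than T0 for 18 of 18 genes in each group (medians -2.86, -1.83 and -3.80), none called. The part of either list in the members' differences was not tested.

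**Figure D2:**
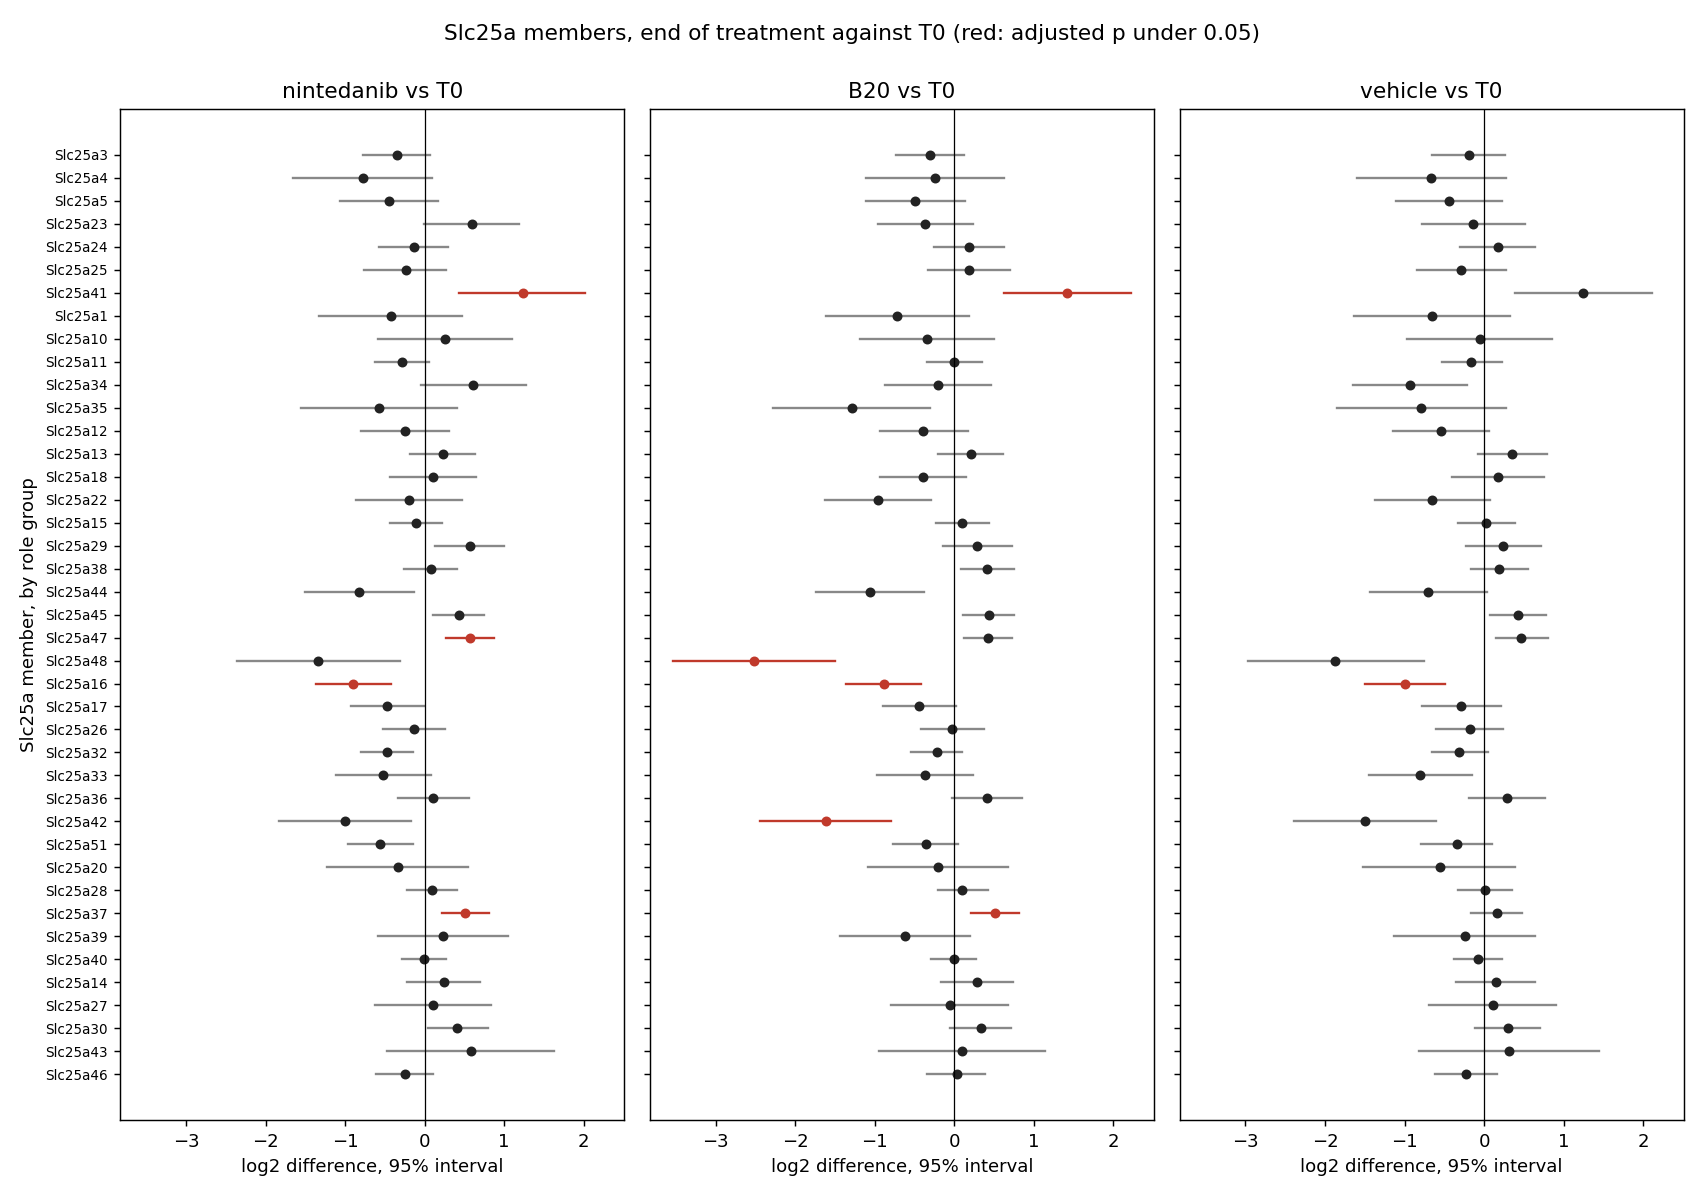
Log2 difference of 41 of the 42 tested members from T0 in nintedanib (left), B20 (middle) and vehicle tumours (right), with its 95% interval, members ordered by role and called members in red. Red marks fall on 4, 5 and 1 members, and Slc25a16 is red and below 0 in every panel.

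Among the adenine nucleotide and phosphate carriers, only Slc25a41 was called, against T0. This group holds the adenine nucleotide translocases Slc25a4, the heart and muscle isoform, and Slc25a5, the widespread one, the phosphate carrier Slc25a3, and the ATP-Mg and phosphate exchangers Slc25a23, Slc25a24, Slc25a25 and Slc25a41. Slc25a41 read -3.22, -4.27, -4.00 and -4.57 in nintedanib tumours, -4.00, -4.28, -3.38 and -3.62 in B20 tumours, -4.45, -4.33 and -3.19 in vehicle tumours and -4.92, -4.77, -5.25 and -6.02 in T0 tumours. Every treated tumour lay above every T0 tumour. The difference from T0 was 1.23 ± 0.37 (SE) in nintedanib tumours (adjusted p = 0.0482). It was 1.42 ± 0.37 in B20 tumours (adjusted p = 0.0308) and 1.25 ± 0.40 in vehicle tumours (adjusted p = 0.0869). The probe was dim, well above background on 2 of the 4 T0 arrays, so no fold is given. With slide as a block the nintedanib and B20 differences were 1.25 and 1.44, and neither was called (adjusted p 0.084 and 0.0579). With normexp background correction the differences were 0.11 in nintedanib tumours and 0.37 in B20 tumours, and with the authors' deposited log2 values 0.27 and 0.29, none of them called. Leaving out any single nintedanib or T0 array other than nintedanib replicate 4 ended the nintedanib call (adjusted p 0.0564 to 0.133), and leaving out B20 replicate 3 or 4 (0.0758 and 0.0867) or T0 replicate 1 or 4 (0.056 and 0.0572) ended the B20 call.

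Slc25a4 had levels of 5.20, 5.47, 6.04 and 5.41 in nintedanib tumours, 7.09, 6.29, 5.63 and 5.28 in B20 tumours, 5.58, 5.79 and 5.56 in vehicle tumours and 7.38, 6.32, 5.64 and 5.89 in T0 tumours. The groups overlapped, and B20 replicate 1 and T0 replicate 1 stood highest. Those were also the arrays with the highest mean level over the 18 skeletal muscle markers, 5.24 in B20 replicate 1 and 5.82 in T0 replicate 1, and the markers' part in the Slc25a4 levels was not tested. No difference of Slc25a4 was called, the largest being -0.78 ± 0.40 in nintedanib against T0 tumours (adjusted p = 0.224).

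Slc25a5 had levels of 3.65, 4.13, 4.19 and 4.12 in nintedanib tumours, 3.87, 4.71, 3.81 and 3.54 in B20 tumours, 4.27, 4.18 and 3.65 in vehicle tumours and 4.10, 4.02, 4.68 and 5.10 in T0 tumours. The phosphate carrier Slc25a3 had levels of 4.14, 4.54, 4.47 and 4.46 in nintedanib tumours, 4.70, 4.65, 4.36 and 4.07 in B20 tumours, 4.79, 4.70 and 4.19 in vehicle tumours and 4.66, 4.55, 4.68 and 5.12 in T0 tumours. Slc25a5 overlapped between all groups. On these values Slc25a3 was lower in every nintedanib tumour than in every T0 tumour, and B20 and vehicle tumours overlapped with T0. Their differences from T0 were -0.45 ± 0.29 and -0.35 ± 0.20 in nintedanib tumours (adjusted p 0.333 and 0.264). Against vehicle, Slc25a5 differed by -0.01 ± 0.31 in nintedanib and -0.05 ± 0.31 in B20 tumours, and Slc25a3 by -0.16 ± 0.21 and -0.11 ± 0.21. A second, dimmer Slc25a3 probe (r = 0.86 with the first) differed from T0 by -0.59, -0.57 and -0.58 in nintedanib, B20 and vehicle tumours. On that probe every treated tumour, vehicle included, lay below every T0 tumour.

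Slc25a23, a calcium-responsive ATP-Mg and phosphate carrier, had levels of -1.67, -1.13, -2.12 and -0.77 in nintedanib tumours, -2.37, -2.27, -2.54 and -2.34 in B20 tumours, -1.59, -2.39 and -2.47 in vehicle tumours and -2.11, -2.04, -1.65 and -2.26 in T0 tumours. Every nintedanib tumour was above every B20 tumour, while nintedanib and vehicle tumours overlapped. The difference was 0.96 ± 0.28 between nintedanib and B20 tumours, 1.94-fold, the lowest p of the members there and not called (adjusted p = 0.517). It was 0.73 ± 0.30 between nintedanib and vehicle tumours (adjusted p = 0.977), 0.35 on the larger slide and 1.70 on the smaller. Slc25a25, another member of the same subgroup, had levels of -0.27, -0.11, -0.34 and -0.09 in nintedanib tumours, 0.94, 0.28, -0.29 and -0.01 in B20 tumours, 0.16, -0.46 and -0.44 in vehicle tumours and 0.20, 0.12, 0.12 and -0.27 in T0 tumours. B20 replicate 1 was the highest and the groups overlapped, with a difference of 0.48 ± 0.26 between B20 and vehicle tumours (adjusted p = 0.998). Slc25a24 differed by between -0.33 and 0.18 over the 6 comparisons, none called.

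Among the carboxylate carriers no member was called, and Slc25a34 had the lowest p of all members in nintedanib against vehicle tumours. Slc25a34 resembles the oxaloacetate carriers of yeast in sequence, and its substrate is not settled. Slc25a34 had levels of 1.80, 1.16, 1.02 and 1.95 in nintedanib tumours, 0.98, 0.28, 1.02 and 0.37 in B20 tumours, -0.31, 0.47 and -0.36 in vehicle tumours and 0.48, 0.41, 1.25 and 1.34 in T0 tumours. Every nintedanib tumour lay above every vehicle tumour, and the lowest nintedanib tumour lay just above the highest B20 tumour (both 1.02 as rounded). The difference between nintedanib and vehicle tumours was 1.55 ± 0.33, 2.93-fold, with a 95% interval of 0.83 to 2.26, and it did not pass the adjustment over all genes (adjusted p = 0.377). It was 1.24 on the larger slide and 2.31 on the smaller, and it lay between 1.36 and 1.82 over the other alternatives, with adjusted p between 0.137 and 1. Between B20 and vehicle tumours it was 0.73 ± 0.33 (adjusted p = 0.998), and between nintedanib and B20 tumours 0.82 ± 0.31 (adjusted p = 0.517). Relative to T0 it was 0.61 ± 0.31 in nintedanib, -0.20 ± 0.31 in B20 and -0.93 ± 0.33 in vehicle tumours, with adjusted p of 0.21, 0.72 and 0.12. The adipocyte markers were higher for 16 of 16 genes in nintedanib and 15 of 16 in B20 tumours relative to vehicle, with median differences of 1.60 and 2.0 and none called. Their part in the Slc25a34 difference was not tested.

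The citrate carrier Slc25a1, which exports citrate for fatty acid synthesis, had levels of 2.59, 2.73, 2.72 and 3.07 in nintedanib tumours, 2.17, 3.42, 2.31 and 2.06 in B20 tumours, 2.80, 2.91 and 1.96 in vehicle tumours and 4.51, 3.1, 2.33 and 2.9 in T0 tumours. T0 replicate 1 stood above all other arrays, and the groups overlapped. The differences were 0.22 ± 0.45 in nintedanib and -0.07 ± 0.45 in B20 tumours against vehicle (adjusted p 0.999 and 0.998), and -0.43 ± 0.42, -0.72 ± 0.42 and -0.65 ± 0.45 in nintedanib, B20 and vehicle tumours against T0.

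The dicarboxylate carrier Slc25a10, which exchanges malate or succinate for phosphate, had levels of -0.08, 0.96, 0.61 and 1.36 in nintedanib tumours, 0.19, 1.01, -0.12 and -0.65 in B20 tumours, 0.97, 0.72 and -0.48 in vehicle tumours and 0.32, 0.52, 0.36 and 0.62 in T0 tumours. The T0 tumours were close together and every other group straddled them. The nintedanib and vehicle difference was 0.31 ± 0.42, but -0.34 on the larger slide and 1.84 on the smaller. The oxoglutarate and malate carrier Slc25a11 had levels of 5.11, 5.21, 5.42 and 5.46 in nintedanib tumours, 5.62, 5.69, 5.42 and 5.62 in B20 tumours, 5.34, 5.55 and 5.40 in vehicle tumours and 5.90, 5.56, 5.19 and 5.69 in T0 tumours. All groups overlapped, and its largest difference was -0.29 ± 0.16 between nintedanib and B20 tumours (adjusted p = 0.596). Slc25a35, a relative of Slc25a34, differed from T0 by -0.58 ± 0.46, -1.29 ± 0.46 and -0.79 ± 0.49 in nintedanib, B20 and vehicle tumours (adjusted p 0.44, 0.0909 and 0.396), with the highest of its 15 levels on T0 replicate 1. All 5 tested members of the group were lower than T0 in vehicle tumours (median -0.65), 4 of 5 in B20 tumours and 3 of 5 in nintedanib tumours.

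**Figure D3:**
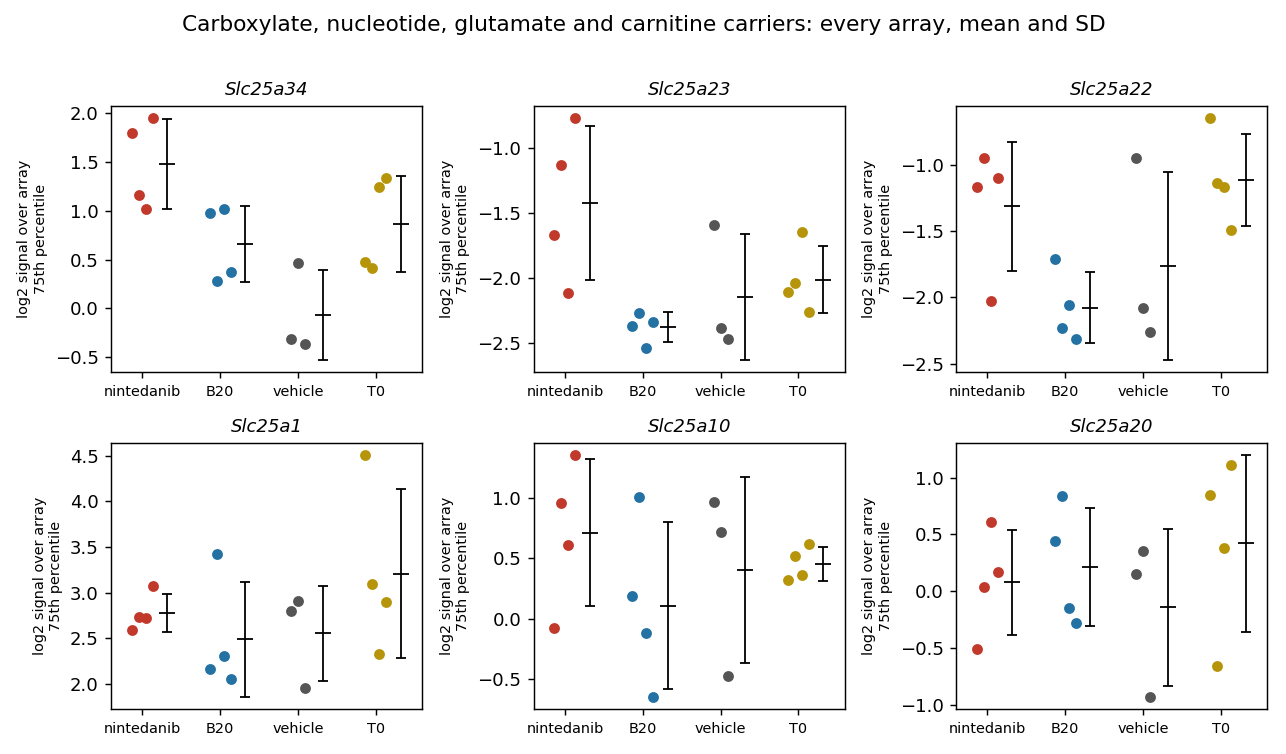
Log2 level, relative to the array's 75th percentile, of 6 uncalled members in every tumour of the nintedanib, B20, vehicle and T0 groups (points), with the group mean and SD (bars at right of the points). Slc25a34 is higher in all 4 nintedanib tumours than in the 3 vehicle tumours, Slc25a23 is higher in all 4 nintedanib tumours than in the 4 B20 tumours, and the other panels overlap between drug and vehicle.

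The aspartate and glutamate carriers feed the malate-aspartate shuttle and glutamate oxidation, and none of the 4 was called in any comparison. Slc25a12, the aspartate and glutamate exchanger of brain and muscle, had levels of 1.75, 2.30, 2.16 and 2.21 in nintedanib tumours, 2.37, 2.27, 1.59 and 1.62 in B20 tumours, 2.25, 2.07 and 1.11 in vehicle tumours and 2.49, 2.25, 2.25 and 2.42 in T0 tumours. Slc25a13, the isoform known as citrin, had levels of 1.47, 1.86, 1.64 and 1.59 in nintedanib tumours, 1.52, 1.90, 1.55 and 1.5 in B20 tumours, 1.83, 1.78 and 1.69 in vehicle tumours and 1.0, 1.15, 1.73 and 1.76 in T0 tumours. Both overlapped between all groups, with the low Slc25a12 value in vehicle replicate 3 and the low Slc25a13 values in T0 replicates 1 and 2. Slc25a12 differed from vehicle by 0.30 ± 0.28 in nintedanib and 0.15 ± 0.28 in B20 tumours, and Slc25a13 by -0.13 ± 0.20 and -0.15 ± 0.20. Slc25a13 differed from T0 by 0.23 ± 0.19, 0.21 ± 0.19 and 0.35 ± 0.20 in nintedanib, B20 and vehicle tumours. Without the slide of T0 replicates 3 and 4, its differences of 0.56 in nintedanib and 0.69 in vehicle tumours were called (adjusted p 0.0447 and 0.0321).

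The glutamate carrier Slc25a22 had levels of -1.17, -0.95, -2.03 and -1.10 in nintedanib tumours, -1.71, -2.23, -2.06 and -2.31 in B20 tumours, -0.95, -2.08 and -2.26 in vehicle tumours and -0.65, -1.14, -1.17 and -1.49 in T0 tumours. Every B20 tumour was below every T0 tumour, and the nintedanib tumours overlapped with both. The difference was 0.76 ± 0.31 between nintedanib and B20 tumours (adjusted p = 0.523) and -0.96 ± 0.31 between B20 and T0 tumours (adjusted p = 0.0667). The second glutamate carrier, Slc25a18, had levels of -3.87, -3.43, -3.75 and -2.80 in nintedanib tumours, -4.26, -4.11, -3.66 and -3.82 in B20 tumours, -3.52, -3.43 and -3.21 in vehicle tumours and -3.90, -3.56, -3.04 and -3.76 in T0 tumours. It was lower in every B20 tumour than in every vehicle tumour, by -0.58 ± 0.27 (adjusted p = 0.998), with -0.54 on the larger slide and -0.62 on the smaller. Members whose groups did not overlap in that comparison were 1 higher and 1 lower, where 5.4% of all genes did not overlap. In nintedanib against vehicle tumours they were 2 higher and 0 lower, where 902 of the 28029 genes were higher without overlap (3.22%) and 1162 lower. In nintedanib against B20 tumours they were 3 higher and 0 lower, where 594 genes were higher without overlap (2.12%) and 1013 lower.

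The role group of carriers of basic, branched-chain and other amino acids also held Slc25a48 and Slc25a47, and its only calls fell on them. Slc25a48 was lower and Slc25a47 higher than T0 in 1 comparison each. Their place in the group is no evidence of an amino acid substrate. Slc25a48, which has been linked to choline import into mitochondria, had levels of -4.23, -4.08, -4.93 and -4.40 in nintedanib tumours, -6.53, -5.49, -5.21 and -5.14 in B20 tumours, -3.88, -5.47 and -5.48 in vehicle tumours and -2.56, -4.00, -2.09 and -3.65 in T0 tumours. Every B20 tumour was below every T0 and every nintedanib tumour. The probe was well above background on 4 of 4 nintedanib, 0 of 4 B20, 1 of 3 vehicle and 4 of 4 T0 arrays. The mean of its processed signal was 5.73-fold lower in B20 than in T0 tumours (means -5.59 and -3.07, adjusted p = 0.01). That mean was 2.27-fold higher in nintedanib than in B20 tumours (means -4.41 and -5.59), which was not called (adjusted p = 0.523). In nintedanib and vehicle tumours it differed from T0 by -1.34 ± 0.48 and -1.87 ± 0.51 (adjusted p 0.084 and 0.0532). These sizes belong to the processed signal, since normexp correction gave -0.49 between B20 and T0 tumours (adjusted p = 0.0853) and the authors' values -0.59. Leaving out any single B20 or T0 array kept the B20 call.

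Slc25a47, a carrier known mainly from liver, had levels of -1.91, -1.94, -1.97 and -1.76 in nintedanib tumours, -2.18, -1.99, -1.88 and -2.11 in B20 tumours, -2.0, -1.87 and -2.10 in vehicle tumours and -2.28, -2.34, -2.77 and -2.46 in T0 tumours. Every treated tumour lay above every T0 tumour. The difference from T0 was 0.57 ± 0.14 in nintedanib tumours, 1.48-fold (adjusted p = 0.0217), 0.42 ± 0.14 in B20 tumours (adjusted p = 0.0735) and 0.47 ± 0.15 in vehicle tumours (adjusted p = 0.088). The nintedanib call ended without nintedanib replicate 1 (adjusted p = 0.0534) or 4 (0.0574), and normexp correction gave 0.23 (0.241). Slc25a29, a carrier of arginine and lysine, had levels of 0.52, 1.03, 0.77 and 1.37 in nintedanib tumours, 0.91, 0.50, 0.59 and 0.57 in B20 tumours, 0.93, 0.25 and 0.62 in vehicle tumours and 0.42, 0.18, 0.25 and 0.56 in T0 tumours. The groups overlapped, and the differences were 0.33 ± 0.22 in nintedanib against vehicle tumours (adjusted p = 0.999) and 0.57 ± 0.20 in nintedanib against T0 tumours (adjusted p = 0.0838).

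On its brighter probe the branched-chain amino acid carrier Slc25a44 was below T0 in every treated tumour. It differed by -0.82 ± 0.32, -1.06 ± 0.32 and -0.70 ± 0.34 in nintedanib, B20 and vehicle tumours, and was not called (adjusted p 0.108, 0.0506 and 0.262). A second Slc25a44 probe (r = 0.8 with the first) gave -0.41, -0.82 and -0.55. On that probe nintedanib and vehicle tumours overlapped with T0, and every B20 tumour lay below T0. Slc25a45 differed from T0 by 0.43 in each of the 3 groups, with adjusted p of 0.0787, 0.0889 and 0.141. Slc25a38, a glycine carrier needed for haem synthesis, differed by 0.41 ± 0.16 between B20 and T0 tumours (adjusted p = 0.11) and by -0.34 ± 0.16 between nintedanib and B20 tumours (adjusted p = 0.532). The ornithine carrier Slc25a15 differed by at most 0.21 in size over the 6 comparisons.

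On the brightest probe of each, the cofactor, vitamin and nucleotide carriers were lower than T0 for 8 of 9 tested members in each group of treated tumours. Their medians were -0.48, -0.36 and -0.34 in nintedanib, B20 and vehicle tumours, where 48.9%, 43.6% and 46% of all genes were lower. Second probes of Slc25a26 and Slc25a51 differed in sign from the first in some of these comparisons, as given below. Of the 9, 1 fell in nintedanib tumours, 2 in B20 tumours and 1 in vehicle tumours, where 4.62%, 3.73% and 2.13% of all genes fell, and Slc25a36, a pyrimidine nucleotide carrier, was the member above T0 in each. Both called members are tied to coenzyme A. Slc25a16, a relative of the yeast carrier Leu5 that is needed for coenzyme A in mitochondria, had levels of -0.86, -0.34, -0.24 and -0.16 in nintedanib tumours, -0.34, -0.16, -0.52 and -0.56 in B20 tumours, -0.48, -0.26 and -0.75 in vehicle tumours and 0.47, 0.02, 0.52 and 0.98 in T0 tumours. All 11 treated tumours lay below all 4 T0 tumours. The level fell by 0.90 ± 0.22 in nintedanib tumours (1.87-fold lower, adjusted p = 0.0201), by 0.89 ± 0.22 in B20 tumours (1.85-fold, adjusted p = 0.0251) and by 1.0 ± 0.24 in vehicle tumours (1.99-fold, adjusted p = 0.0304). With slide as a block the nintedanib and B20 calls held (adjusted p 0.0395 and 0.0476) and the vehicle call did not (0.051). The treated groups differed from each other by at most 0.11, none called. The vehicle call ended without T0 replicate 1 (adjusted p = 0.0732) or without vehicle replicate 1, 2 or 3 (0.0825, 0.0575 and 0.113), the nintedanib call without nintedanib replicate 1 (0.0619) and the B20 call without B20 replicate 3 or 4 (0.0567 and 0.0753) or T0 replicate 1 (0.0592).

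Slc25a42, which exchanges coenzyme A for adenine nucleotides, had levels of 0.81, 1.0, 0.30 and 0.98 in nintedanib tumours, 0.51, -0.34, 0.54 and -0.11 in B20 tumours, 0.86, 0.19 and -0.23 in vehicle tumours and 2.56, 2.43, 1.20 and 0.89 in T0 tumours. T0 replicates 1 and 2, which shared a slide, stood above all other arrays. B20 and vehicle tumours lay below every T0 tumour, and nintedanib tumours overlapped with T0 replicate 4. The level fell by 1.62 ± 0.38 in B20 tumours, 3.08-fold (adjusted p = 0.0222). The differences were -1.0 ± 0.38 in nintedanib tumours (adjusted p = 0.107) and -1.5 ± 0.41 in vehicle tumours (adjusted p = 0.0548). Without the slide of T0 replicates 1 and 2 the B20 difference was -0.90 and not called (adjusted p = 0.175), and without that of replicates 3 and 4 it was -2.35. The call also ended without B20 replicate 2 or 4 (0.0643 and 0.0669) or T0 replicate 1 or 2 (0.0668 and 0.0627). The mean level of the 16 adipocyte markers was also higher in T0 replicates 1 and 2 (5.53 and 5.04) than in T0 replicates 3 and 4 (3.64 and 3.19). In vehicle replicates 1 to 3 the order was the reverse of that of Slc25a42, with adipocyte means of -1.3, -0.22 and 0.44. In nintedanib and B20 tumours neither the same nor the reverse order held throughout. The part of the adipocyte markers in the Slc25a42 difference was not tested.

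**Figure D4:**
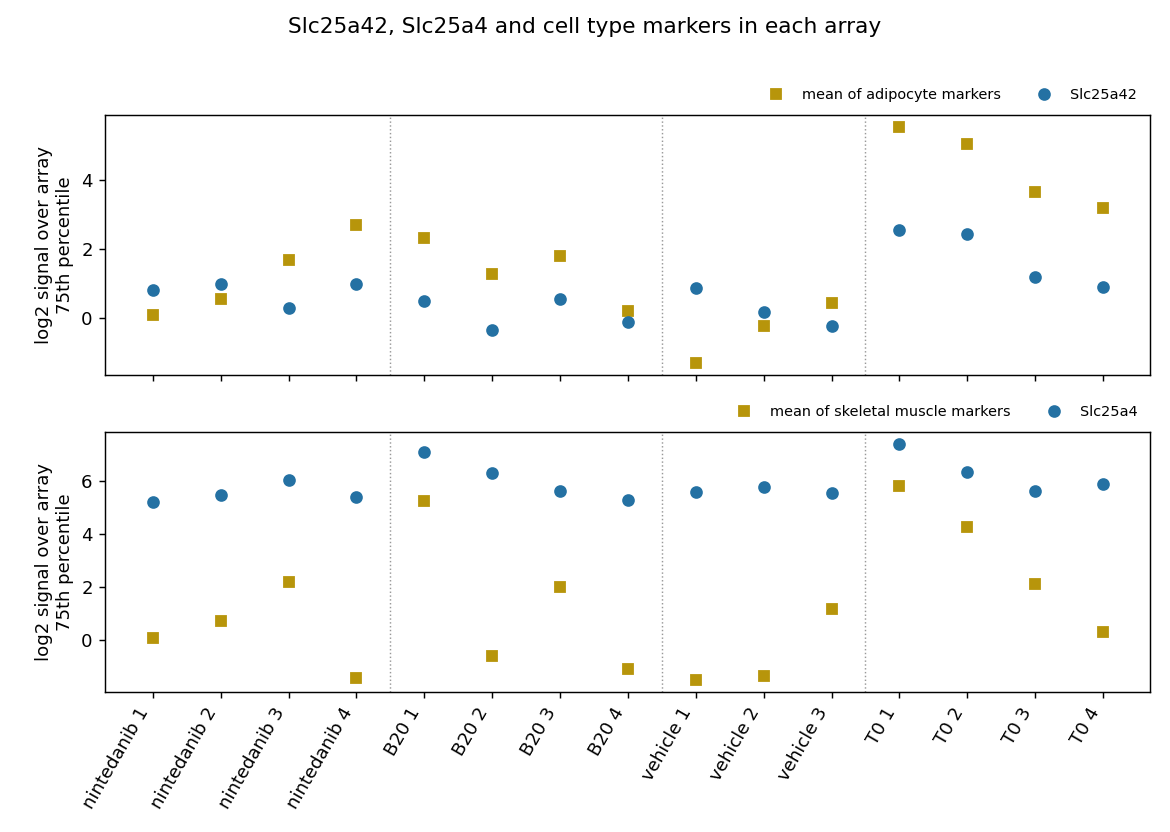
Log2 level, relative to the array's 75th percentile, of Slc25a42 with the mean of 16 adipocyte markers (top) and of Slc25a4 with the mean of 18 skeletal muscle markers (bottom) in each of the 15 arrays, with dotted lines between groups. T0 replicates 1 and 2 are highest for Slc25a42 and for the adipocyte mean, while in vehicle tumours Slc25a42 and the adipocyte mean run in opposite order. T0 replicate 1 and B20 replicate 1 are highest for Slc25a4 and for the muscle mean.

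None of the other cofactor carriers was called. Slc25a33, a pyrimidine nucleotide carrier, differed from T0 by -0.52, -0.37 and -0.80 in nintedanib, B20 and vehicle tumours, and the NAD+ carrier Slc25a51 by -0.56, -0.36 and -0.34, with adjusted p between 0.0715 and 0.437. A second probe of Slc25a51 (r = 0.43 with the first) gave -0.06, 0.05 and 0.01. The folate carrier Slc25a32 differed by -0.48 ± 0.15 in nintedanib tumours (adjusted p = 0.0581), and by -0.22 and -0.31 in B20 and vehicle tumours. Every nintedanib and every vehicle tumour lay below every T0 tumour, and B20 tumours overlapped with T0. Slc25a17, which carries cofactors into peroxisomes, differed by -0.47, -0.44 and -0.29. The S-adenosylmethionine carrier Slc25a26 differed by -0.14, -0.03 and -0.18. A second probe of Slc25a26 (r = 0.68 with the first) gave 0.08, 0.06 and -0.03. Against vehicle, the 9 members ranged from -0.22 to 0.50 in nintedanib tumours and from -0.15 to 0.43 in B20 tumours.

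The carnitine and acylcarnitine carrier Slc25a20, through which long-chain fatty acids reach beta-oxidation, was not called. Slc25a20 had levels of -0.51, 0.04, 0.61 and 0.17 in nintedanib tumours, 0.44, 0.84, -0.15 and -0.28 in B20 tumours, 0.15, 0.35 and -0.93 in vehicle tumours and 0.85, -0.66, 0.38 and 1.11 in T0 tumours. The groups overlapped throughout. It differed from vehicle by 0.22 ± 0.44 in nintedanib and 0.36 ± 0.44 in B20 tumours, with 95% intervals of -0.73 to 1.18 and -0.60 to 1.31, and from T0 by -0.34, -0.21 and -0.56 in nintedanib, B20 and vehicle tumours.

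Among the iron and glutathione carriers, Slc25a37 was higher than T0 in nintedanib and B20 tumours. Slc25a37 is mitoferrin 1, the mitochondrial iron importer of red cell precursors, and Slc25a28 is its relative in other tissues. Slc25a37 had levels of 2.53, 2.30, 2.38 and 2.61 in nintedanib tumours, 2.52, 2.23, 2.63 and 2.42 in B20 tumours, 2.10, 2.18 and 2.04 in vehicle tumours and 1.94, 2.15, 1.86 and 1.81 in T0 tumours. All 8 drug-treated tumours were above all vehicle and T0 tumours, and vehicle tumours overlapped with T0. The level rose by 0.51 ± 0.14 over T0 in nintedanib tumours (1.43-fold, adjusted p = 0.0301) and by 0.51 ± 0.14 in B20 tumours (1.42-fold, adjusted p = 0.0355), and differed by 0.16 ± 0.15 in vehicle tumours (adjusted p = 0.587). With slide as a block the differences were 0.52 and 0.51, and neither was called (adjusted p 0.0571 and 0.066). Against vehicle it differed by 0.35 ± 0.15 in each drug group, which was not called (adjusted p 0.978 in nintedanib and 0.998 in B20 tumours). On the larger slide these differences were 0.27 and 0.32, and on the smaller they were 0.57 and 0.38. A second probe of the gene did not follow the first (r = 0.38 over the 15 arrays). It gave -0.12 and 0.31 in nintedanib and B20 tumours against vehicle, and -0.04 and 0.39 against T0. With the mean of both probes the differences from T0 were 0.24 and 0.45, neither called (adjusted p 0.416 and 0.132). Of the 8 erythroid markers 5 were tested, with summed signals of 207 to 509 in nintedanib, 73 to 998 in B20, 131 to 234 in vehicle and 243 to 976 in T0 tumours. Against vehicle all 5 were higher in both drug groups (medians 0.91 and 1.1), none called. Against T0, 2, 3 and 1 of them were higher in nintedanib, B20 and vehicle tumours. Only Slc4a1 was called there, higher by 1.25 in nintedanib and 1.44 in B20 tumours (adjusted p 0.0162 and 0.0118). The part of the erythroid markers in the Slc25a37 difference was not tested.

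The Slc25a37 calls ended when nintedanib replicate 1 or 4 (adjusted p 0.0788 and 0.077) or T0 replicate 1, 3 or 4 (0.066, 0.0542 and 0.0513) was left out in nintedanib against T0 tumours. In B20 against T0 tumours they ended without B20 replicate 1, 3 or 4 (0.076, 0.0881 and 0.0818) or T0 replicate 1, 3 or 4 (0.0797, 0.0636 and 0.0571). Slc25a28 differed by at most 0.10 in size over the 6 comparisons. The mitochondrial glutathione carrier Slc25a39 differed by 0.85 ± 0.38 between nintedanib and B20 tumours (adjusted p = 0.529), with 0.55 on the larger slide and 1.76 on the smaller. Its close relative Slc25a40 differed by at most 0.08 in size. Slc25a39 differed by 0.47 between nintedanib and vehicle tumours, but by -0.06 without vehicle replicate 3 (adjusted p 0.999 and 1 with limma).

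**Figure D5:**
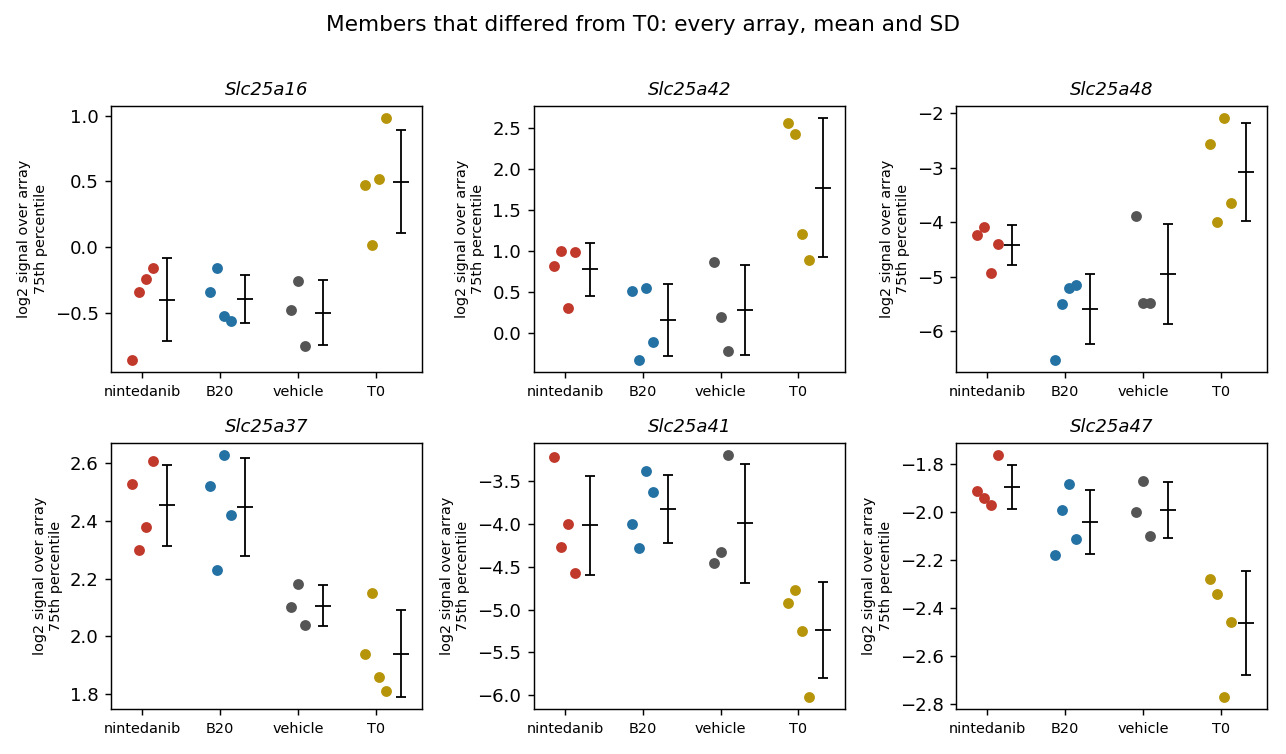
Log2 level, relative to the array's 75th percentile, of the 6 members called in a comparison with T0, in every nintedanib, B20, vehicle and T0 tumour (points), with the group mean and SD (bars at right of the points). Slc25a16 is lower and Slc25a41 and Slc25a47 are higher in all 11 treated tumours than in the 4 T0 tumours, and Slc25a37 is higher in the 8 drug-treated tumours than in all others.

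The uncoupling protein relatives Slc25a14, Slc25a27 and Slc25a30 were not called. They differed from T0 by 0.10 to 0.41 in nintedanib, -0.06 to 0.33 in B20 and 0.11 to 0.30 in vehicle tumours, the largest being Slc25a30 in nintedanib tumours (0.41 ± 0.18, adjusted p = 0.14). Slc25a43, with no settled substrate, differed by at most 0.58 in size, with SDs of 0.24, 0.85, 0.65 and 0.98 in nintedanib, B20, vehicle and T0 tumours. Slc25a46, an outer membrane protein that takes part in mitochondrial fission and fusion, differed by at most 0.28. Its 2 probes did not follow each other (r = -0.20).

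Of 5 genes of the same family that carry other symbols, Mtch2, an outer membrane protein that inserts proteins into that membrane, fell in nintedanib against T0 tumours. Mtch2 had levels of 4.35, 4.58, 4.99 and 4.70 in nintedanib tumours, 4.97, 5.27, 4.72 and 4.67 in B20 tumours, 4.67, 4.88 and 4.52 in vehicle tumours and 5.87, 5.27, 5.16 and 5.85 in T0 tumours. Every nintedanib and vehicle tumour was below every T0 tumour. Its level fell by 0.88 ± 0.21 in nintedanib tumours (adjusted p = 0.0195), and its differences were -0.63 ± 0.21 in B20 and -0.85 ± 0.23 in vehicle tumours (adjusted p 0.0784 and 0.0506). Ucp1, the uncoupling protein of brown fat, had levels of -7.24, -4.98, 1.32 and -2.60 in nintedanib tumours, 1.03, -1.96, -1.95 and -5.52 in B20 tumours, -5.86, -6.85 and -6.67 in vehicle tumours and 6.75, 3.34, -2.76 and -0.56 in T0 tumours. It was well above background on 3 of 4 nintedanib, 3 of 4 B20, 0 of 3 vehicle and 4 of 4 T0 arrays. Its signal was at least 168-fold lower in vehicle than in T0 tumours, which was not called (adjusted p = 0.0536). That bound rested on T0 replicates 1 and 2. It was 52.3-fold without T0 replicate 1 and 16.5-fold without the slide that held both, and 471-fold and 283-fold without T0 replicates 3 and 4 in turn.

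Genes that work beside the carriers were read from lists of the same fit. Of 23 genes listed as other mitochondrial transporters, 1 rose and 3 fell in nintedanib against T0 tumours, where 6.82% of all genes rose and 4.62% fell. In B20 against T0 tumours 2 of them fell, where 3.73% of all genes fell. The gene that rose, by 0.95 in nintedanib tumours, was Cpt1c, the brain isoform of the enzyme carnitine palmitoyltransferase and not itself a carrier. The serine transporter Sfxn1 fell by 0.62 there. Letm1, a cation exchanger, fell by 0.79 in nintedanib and 0.85 in B20 tumours, and Abcb8, a subunit of a potassium channel, by 0.62 and 0.69. In vehicle tumours the same genes differed from T0 by 0.79 (Cpt1c), -0.39 (Sfxn1), -0.68 (Letm1) and -0.32 (Abcb8), with adjusted p of 0.117, 0.127, 0.0817 and 0.269. The 12 genes of the carrier import machinery gave no call in any of the 6 comparisons, with medians between -0.26 and 0.16.

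Of 25 tested enzymes that use the carriers' substrates, 5 fell in nintedanib and 4 in B20 tumours against T0, where 4.62% and 3.73% of all genes fell, and 0 were called in vehicle tumours, where 2.13% fell. Gldc, the glycine decarboxylase, fell by 2.66 in nintedanib and 2.76 in B20 tumours. Citrate synthase Cs fell by 0.92 and 0.95, and mitochondrial malate dehydrogenase Mdh2 by 0.69 and 0.59. Acly, which splits exported citrate, fell by 1.32 and Cpt2, which acts beside Slc25a20, by 1.13, both in nintedanib tumours. Alas1, the first enzyme of haem synthesis, fell by 0.76 in B20 tumours. All 6 also lay below T0 in vehicle tumours without a call, Gldc by -2.03, Acly by -0.96, Cs by -0.88, Cpt2 by -0.87, Alas1 by -0.69 and Mdh2 by -0.67 (adjusted p 0.0502 for Mdh2 to 0.109 for Acly). None of these genes of the 3 lists was called between drug and vehicle or between the drugs. The adipocyte values given above stand beside these differences from T0 as well, and their part was not tested.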

How the data were processed

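The authors deposited Agilent Feature Extraction 10.7.3.1 output, per the file headers. Its intensity columns hold the background-subtracted processed signal and the median spot and background signals, and its flags for signals well above background (other values) are the authors' deposited scanner calls. A deposited table of log2 values was also given. It matched normexp correction with quantile normalization, computed from the arrays, to a median r of 0.99992. From the processed intensity, log2 values were taken minus each array's 75th percentile. Control spots were dropped and spots of a probe averaged. A probe was kept if 3 or more of the 15 arrays had it well above background, and the brightest kept probe stood for a gene. Symbols came from RefSeq through the transcript identifiers (26056 of 55681 probes named). One limma 3.58.1 model (R 4.3.3) with 4 group means was fitted to 28029 genes and unnamed transcripts, with Benjamini-Hochberg adjustment over all of them. The fitting code was tested on simulated data. Normexp used the median spot signal, since the mean signal is not among the columns. Genes are named if called, among the lowest p of a comparison, or core carriers of a role. The values of 1 tested member are not reported here, and it stays in the counts. Members and lists were chosen with earlier results of these data known. The number of arrays limits precision: the median SE was 0.29 for 4 against 3 arrays and 0.269 for 4 against 4.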

Additional observations from a re-analysis of the deposited data

Results flagged for a closer look

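In 3 of the 63 groups of 4 arrays checked, 1 array lay far from the other 3, and chance gives about 1 in 20. Slc25a5 had a level of 3.65 in nintedanib replicate 1, against 4.12 to 4.19 in the other nintedanib tumours. Slc25a13 had a level of 1.90 in B20 replicate 2, against 1.5 to 1.55 in the other B20 tumours. Slc25a25 had a level of -0.27 in T0 replicate 4, the array with both labels, against 0.12 to 0.20 in the other T0 tumours. A second Slc25a25 probe read -1.51, -1.51, -1.6 and -1.68 in T0 replicates 1 to 4, where replicate 4 did not stand apart.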

How the results depend on the processing

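No member was called between drug and vehicle or between the drugs under any alternative run. Over all genes, array weights called 12 and leaving out 1 array 0 to 1 in nintedanib against vehicle tumours, and a fit of the 2 groups alone called 1 in nintedanib against B20 tumours. Members called in nintedanib against T0 tumours (4) were 0 with median scaling, 2 without a filter, 2 with the mean of probes, 2 with slide as a block, 0 with the 2 groups alone, 12 with array weights and 0 to 4 with 1 array left out. Those in B20 against T0 tumours (5) were 3 with normexp, 2 with median scaling, 3 with the slide block, 1 with 2 groups, 9 with weights and 1 to 5 with 1 array left out. Those in vehicle against T0 tumours (1) were 2 with normexp, 2 with quantile normalization, 3 with a filter at 8 arrays, 0 with the slide block, 0 with 2 groups, 7 with weights and 0 to 3 with 1 array left out. Without the T0 slide of replicates 1 and 2, an alternative chosen after seeing the data, members called were 2, 2 and 0 in nintedanib, B20 and vehicle tumours. Without that of replicates 3 and 4, 3 were called in B20 and 4 in vehicle tumours.

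Genes called in nintedanib against T0 tumours (3208) were 1365 with median scaling, 2023 with the slide block, 1455 with 2 groups, 7921 with weights, 1053 and 5038 without each T0 slide and 1610 to 3913 with 1 array left out. In B20 against T0 tumours (2668) they were 1606 with normexp, 1186, 1540, 986 and 6059 under the same 4 settings, 457 and 4285 without each T0 slide and 919 to 3305 with 1 array left out. In vehicle against T0 tumours (1382) they were 680, 875, 17 and 5274 under those settings, 894 without a filter, 214 and 3338 without each T0 slide and 480 to 2097 with 1 array left out. The cause was not tested. Of 1661 values of single members, most of them of uncalled members, 1460 kept direction and side of the threshold. A call was lost in 93 values and gained in 18, and 0 called values reversed. Another 90 uncalled values changed direction. The 93 losses all fell on the 10 calls against T0. The least stable call held in 2 of 21 alternatives (Slc25a41 in nintedanib tumours) and the most stable in 20 of 21 (Slc25a48 in B20 tumours). The median of all genes moved to -0.16 with normexp in nintedanib against B20 tumours.

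Replicate numbers did not pair the arrays: same-numbered arrays correlated by -0.25 to 0.38, and 4 of 15 correlated best with their own number. With a replicate block, 2 members were called in nintedanib against T0 tumours, and in vehicle against T0 tumours Slc25a42 was called (-1.60, adjusted p = 0.0445) and Slc25a16 was not (-0.93, adjusted p = 0.0668). For the dim Slc25a41 and Slc25a48, signal over background limits the size of differences.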
